A study of Homo sapiens with 12 samples.

Results

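The cell surface and matrix proteins that carry heparan sulfate, and the sulfatases that edit its chains, were followed at the mRNA level in cells of alveolar rhabdomyosarcoma (ARMS), a childhood tumor with features of skeletal muscle. The set holds 10 genes. They are the sulfatases SULF1 and SULF2, the syndecans SDC1, SDC2, SDC3 and SDC4, the glypicans GPC1, GPC3 and GPC4, and HSPG2, which encodes perlecan. Every gene probe on the arrays whose deposited gene name equals one of these symbols was taken, which gave 12 probes of 41000. The genes were chosen by their log2 ratios in these same comparisons, together with their roles, so the ratios are a description and carry no test of their own.

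Rh30 is an ARMS cell line that carries PAX3-FKHR, a fusion of the paired-box and homeodomain part of PAX3 with the activation part of FKHR (FOXO1). The arrays compared 3 cultures: untransfected parental Rh30 cells (WT), a stable Rh30 clone with a non-targeting shRNA (CON), and a stable Rh30 clone with an shRNA against PAX3-FKHR (KD1). CON and KD1 are single clones that grew with puromycin at 1 µg/mL, whereas WT grew without it, and all cells were taken 24 h after plating. The 12 two-color arrays, each with 500 ng of RNA per label, cover KD1 vs CON, KD1 vs WT and WT vs CON, and each comparison was made in 2 biological replicates, both hybridized with the dyes in either order. Because 6 RNA extracts supply all arrays and each extract is on 4 of them, the comparisons share extracts, and whether the replicates are separate cultures is not stated, so the spread between them may be partly technical.

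Heparan sulfate is a long sugar chain that is built in the Golgi on a core protein and then sulfated in a pattern that decides which growth factors it holds. Syndecans carry such chains across the plasma membrane, glypicans are tethered to its outer face by a lipid anchor, and perlecan carries them in the basement membrane. SULF1 and SULF2 are secreted enzymes that remove 6-O-sulfate groups from finished chains outside the cell, and thereby alter the binding of FGF, Wnt and other ligands.

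Each value comes from 1 probe of 60 bases. The first 30 bases of the probes for the members with the largest KD1 ratios, and of both SDC1 and both SDC4 probes, are given so that the part of the mRNA that was read can be found (5′ to 3′, lower case throughout, with no base marked).
SULF2 A_23_P154605: aacctaataagaaatcccaattttcaggag
GPC3 A_24_P57631: acattaaccagctcctgagaaccatgtcta
GPC4 A_23_P435407: ccaaagactaacaactgccttgggaatccc
SDC1 A_23_P16944: accctgggccctgggctggaatcaggaata
SDC1 A_24_P97129: cctgaagatcaagatggctctggggatgac
SDC4 A_23_P109034: cctggtgccttctgatggggctggaatagt
SDC4 A_24_P373976: aagaaactagaggagaatgaggttatcccc
On the build of the files, hg18, the SULF2 probe lies at chr20:45719831-45719890 on the minus strand and starts at base 3565 of its transcript. The GPC4 probe lies at chrX:132263095-132263154, also on the minus strand. The GPC3 probe spans chrX:132558245-132623434 on the minus strand, 65190 bases for 60 bases of probe, so that it reads across a splice junction. The 2 SDC1 probes start at bases 2456 and 481 of the transcript, and the 2 SDC4 probes at bases 1903 and 349, which places the second probe of each pair far from the 3′ end.

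PAX3-FKHR binds DNA through the homeodomain and the paired domain of PAX3. The words searched were ATTA for the homeodomain and GTTCC for the paired domain. The paper writes the paired-domain site as GTTC/AT/C, and its other forms, such as GTTAC and GTTCT, were neither counted nor marked. RefSeq promoters of GRCh38.p14, windows of 300 bases around a transcription start, gave 4 windows for SULF2. The window at chr20:47786047-47786346 on the minus strand is shown because it alone of the 4 holds both ATTA and GTTCC. They are in capitals and on either strand (GGAAC is GTTCC on the other strand). The shown window also holds GTTAC, and other SULF2 windows hold ATTA with GTTAC, so the choice of window rests on GTTCC.
SULF2 promoter window: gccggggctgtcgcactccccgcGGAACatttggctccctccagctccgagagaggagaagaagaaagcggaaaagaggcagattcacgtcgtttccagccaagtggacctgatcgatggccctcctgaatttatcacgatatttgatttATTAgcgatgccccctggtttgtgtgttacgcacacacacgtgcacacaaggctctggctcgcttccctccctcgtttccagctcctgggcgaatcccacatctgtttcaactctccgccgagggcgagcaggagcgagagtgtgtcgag
Of 35116 RefSeq promoter windows of 300 bases, 50.2% held ATTA, 44.6% held GTTCC and 21.6% held both. A match of these short words is a description of the window and not a binding site.

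The arrays measured all 12 member probes. Each was well above background in 24 of 24 readings (6 extracts, 4 readings each), and no spot was saturated. Of 6 rhabdomyosarcoma markers, 4 in WT, 4 in CON and 5 in KD1 were well above background in every reading, MYOD1, MYOG and DES among them, and TFAP2B was in none. MYOG, a muscle transcription factor, was lower in WT than in CON by both of its probes (mean log2 ratios -1.81 and -1.73, limma adjusted p = 0.0177 and 0.0187). KD1 relative to CON gave mean log2 ratios of -1.15 and -1.14 for MYOG and did not pass (limma adjusted p = 0.0532 and 0.0510). By A_24_P311036, MYOG stood at a mean log2 level of 11.67 in CON, 10.03 in WT and 10.61 in KD1, so that CON was highest. Its part in the ratios against CON was not tested. The 4 probes for the parts of PAX3 and FOXO1 that the fusion keeps, which also read the unfused genes, gave mean log2 ratios between -0.42 and -0.28 for KD1 against CON and between -0.60 and -0.25 against WT, and none passed the test. A PAX3 probe for the 3′ part that the fusion lacks, A_23_P209499, gave mean log2 ratios of -0.09 and 0.06. No array probe reads the fusion alone. The paper measured it by real-time RT-PCR and Western blot and reports less fusion mRNA and protein in KD1 than in CON. Of 7 markers of other cell types, only PECAM1 and CD3E were well above background in every reading (PECAM1 at mean log2 levels of 9.44 in WT, 10.00 in CON and 9.72 in KD1), and PTPRC, which marks leukocytes, was in none. EPCAM, an epithelial marker, was well above background in 4 of 4 readings of WT replicate 2 and in none of the other 5 extracts, at a level at least 11.2-fold that of WT replicate 1. LYZ, a myeloid marker, was well above background in 2 of 4 readings of WT replicate 2 and in none of the other extracts. What either marker means for any ratio with WT replicate 2 was not tested. The dye-swap arrays of KD1 vs WT replicate 2 also differed more from each other than in the other 5 pairs (correlation across probes 0.435, against 0.816 to 0.872).

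SULF2 had the largest ratios of the set. On the 4 KD1 vs CON arrays its log2 ratios were -2.74 and -2.43 in replicate 1 and -5.20 and -5.32 in replicate 2. The swap-averaged replicate values were -2.59 and -5.26, the second of them 38.3-fold lower in KD1. On the KD1 vs WT arrays they were -3.36, -3.43, -3.16 and -2.89, with replicate means 10.5-fold and 8.12-fold lower in KD1. Both cultures thus had more SULF2 signal than KD1 on every array, and the size differed more between replicates in the comparison with CON (mean -3.92 ± 1.89 on the log2 scale against CON and -3.21 ± 0.26 against WT; SD, n = 2). The WT vs CON arrays read 1.00 and 0.67 in replicate 1 and -2.26 and -2.38 in replicate 2, so the cultures without the knockdown changed order between replicates. With normexp background correction and an offset of 50, the mean log2 ratios were -1.45 against CON and -1.31 against WT. The KD1 readings of SULF2 lay between 4.62 and 5.20 on the log2 scale. The lowest signal well above background was 4.02 to 4.49 in red and 3.16 to 3.67 in green across arrays. The KD1 signal was thus near the floor, and the size of these ratios moved with the background correction.

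The levels of the single extracts show where this spread lay. SULF2 read 8.46 and 7.74 in the WT extracts, 7.62 and 10.12 in the CON extracts and 5.08 and 4.78 in the KD1 extracts (log2 level after scaling between arrays). CON replicate 2 was the high one, 2.51 log2 units above CON replicate 1, a gap that 0.0868% of 21894 probes reached between these extracts. The KD1 extracts differed by 0.31. Levels followed the order KD1, WT, CON, and WT and CON overlapped while KD1 lay below both. A culture with fewer cells of a kind and one with less RNA per cell cannot be told apart in such extracts. The study names SULF2 among known PAX3-FKHR targets found on these samples, so its direction here is not independent evidence.

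**Figure D1:**
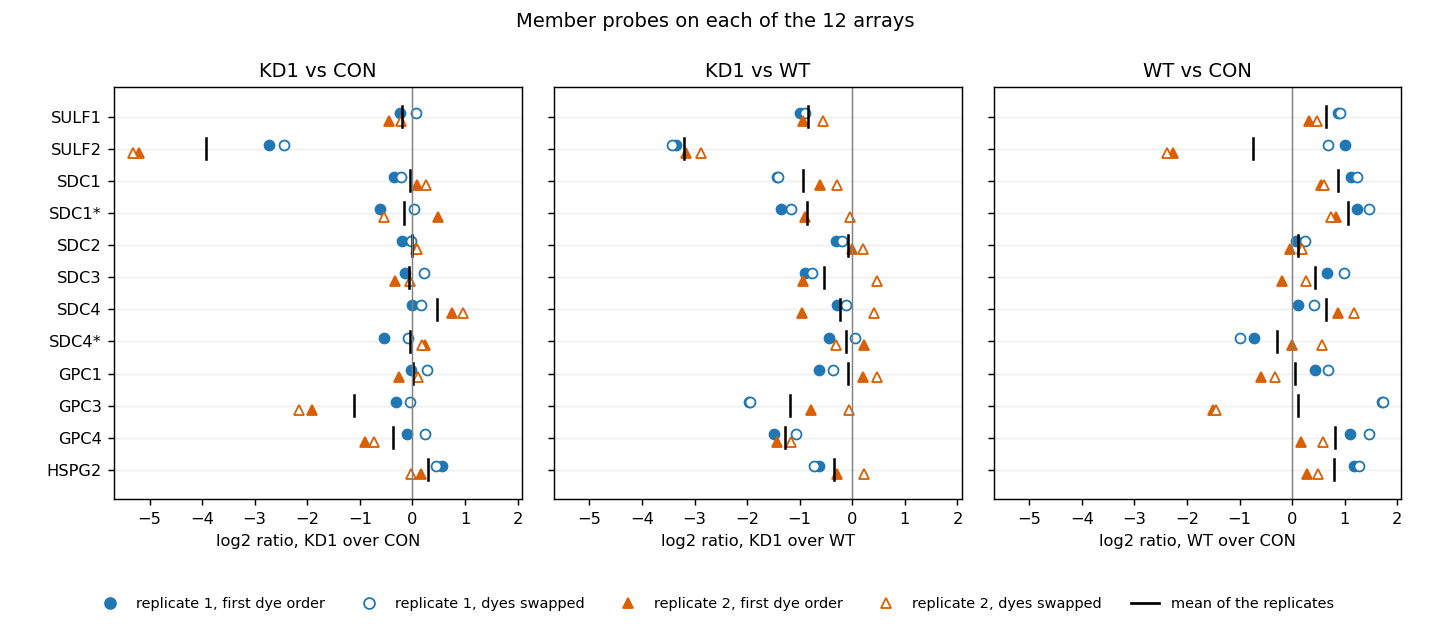
Log2 ratio (x axis) of each member probe (y axis) on each of the 12 arrays, by comparison, with circles for replicate 1, triangles for replicate 2, open symbols for swapped dyes and a bar for the mean of the replicates; an asterisk marks the dimmer of a gene's probes. SULF2 lay left of 0 on all 8 KD1 arrays, between -5.32 and -2.43, while SULF2 and GPC3 in WT vs CON lay on opposite sides of 0 in the replicates.

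SULF1, the second sulfatase, showed no such difference between the clones. Its KD1 vs CON log2 ratios were -0.08 and -0.33 in the replicates, with 1 of 4 arrays above 0. Against WT they were -0.94 and -0.75, below 0 on all 4 arrays, and WT vs CON gave 0.88 and 0.40, above 0 on all 4. The extract levels were 12.84 and 12.10 in WT, 11.94 and 11.67 in CON and 11.86 and 11.36 in KD1. The clones overlapped and WT lay above both.

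GPC3, an oncofetal glypican whose loss causes an overgrowth syndrome, was at least 2-fold lower in KD1 by the mean in both comparisons, but each mean rested on 1 replicate. The KD1 vs CON log2 ratios were -0.18 in replicate 1 and -2.04 in replicate 2, a mean of -1.11 ± 1.31 (SD, n = 2). Against WT the order was turned, with -1.96 in replicate 1 and -0.42 in replicate 2 (-1.19 ± 1.09). WT vs CON gave 1.72 and -1.48, so that the direction between the cultures without the knockdown was opposite in the replicates, as for SULF2. The extract levels were 9.02 and 7.71 in WT, 7.25 and 9.21 in CON and 7.02 and 7.26 in KD1. The high extracts were therefore WT replicate 1 and CON replicate 2, and KD1 overlapped with CON. The CON extracts differed by 1.96 log2 units, which 0.228% of 21894 probes reached, and the WT extracts by 1.31, which 0.895% reached.

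GPC4, the neighbor of GPC3 on the X chromosome and a glypican known for binding Wnt ligands, had the closest replicates of the set in KD1 vs WT. Its log2 ratios there were -1.49 and -1.07 in replicate 1 and -1.43 and -1.16 in replicate 2, with a mean of -1.29 ± 0.01 (SD, n = 2; 2.44-fold lower in KD1). KD1 vs CON gave 0.07 and -0.82, and WT vs CON gave 1.28 and 0.37. Levels were 12.02 and 11.52 in WT, 10.72 and 11.17 in CON and 10.74 and 10.28 in KD1. WT was highest and the clones overlapped. GPC1, the glypican first found in fibroblasts, had small swap-averaged ratios that turned with the replicate (0.12 and -0.08 for KD1 relative to CON, -0.50 and 0.34 relative to WT, and 0.56 and -0.45 for WT relative to CON). Its replicates took opposite signs in all 3 comparisons.

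**Figure D2:**
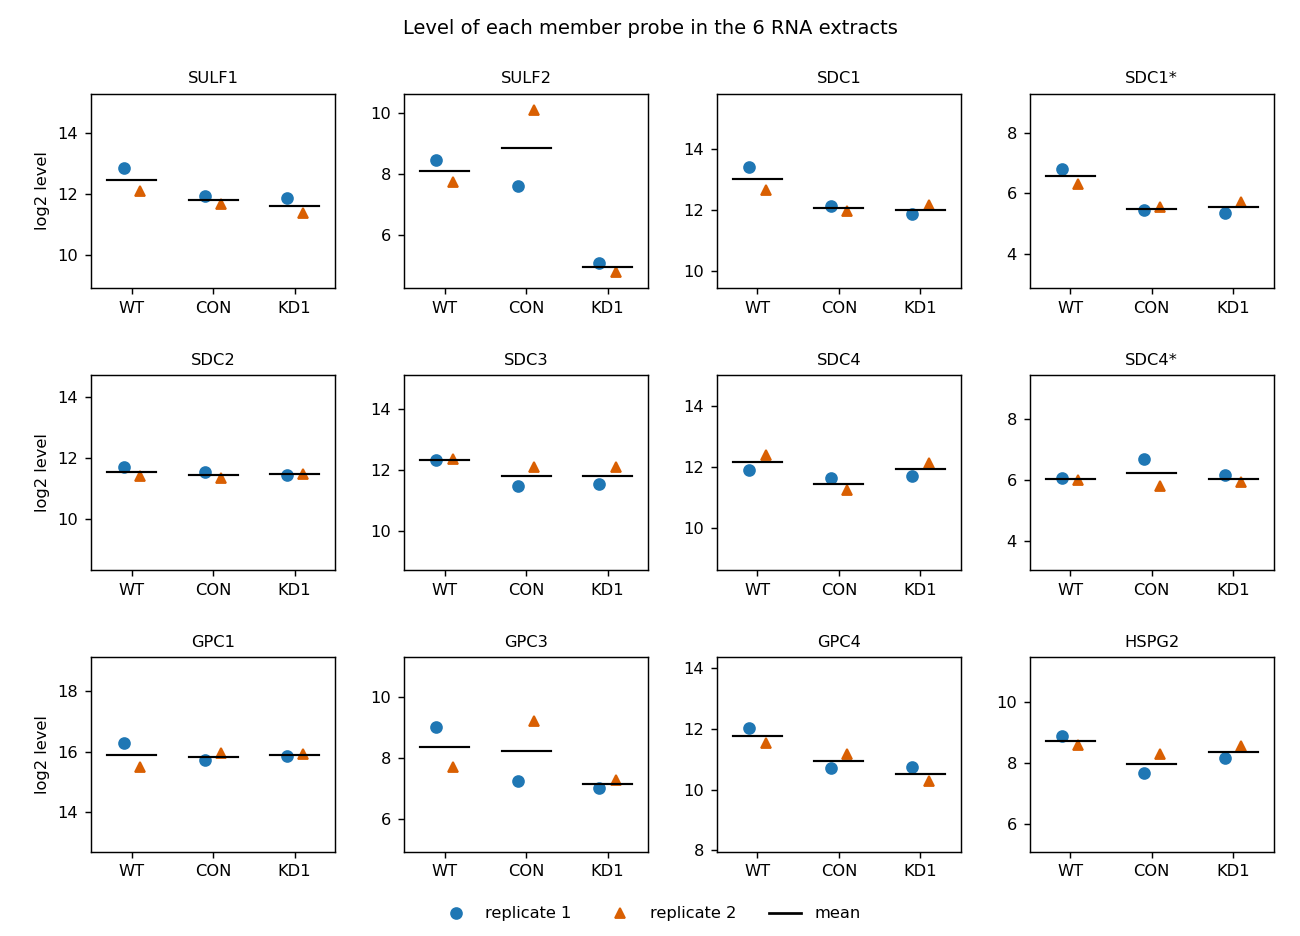
Log2 level (y axis, with the same span in every panel) of each member probe in the 6 RNA extracts, by culture (x axis), with circles for replicate 1, triangles for replicate 2 and a bar for the mean; an asterisk marks the dimmer of a gene's probes. SULF2 in both KD1 extracts, at 5.08 and 4.78, lay below all other extracts, and CON replicate 2 stood at 10.12 for SULF2 and 9.21 for GPC3.

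Of the syndecans, SDC1 by both of its probes and SDC3 had both WT extracts above the 4 clone extracts. SDC1, the syndecan typical of epithelial and plasma cells, gave KD1 vs CON log2 ratios of -0.29 and 0.17 by its brighter probe. KD1 relative to WT gave -1.42 and -0.45, and WT relative to CON gave 1.18 and 0.58. The dimmer probe A_24_P97129, which was not above the negative controls on all KD1 vs CON arrays, gave -1.26 and -0.47 for KD1 relative to WT, then 1.35 and 0.79 for WT relative to CON. Both probes thus read SDC1 lower in KD1 than in WT on all 4 arrays and higher in WT than in CON on all 4. SDC1 by the brighter probe stood at 13.40 and 12.66 in WT, 12.14 and 11.96 in CON and 11.87 and 12.17 in KD1, with overlapping clones below WT.

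SDC2, also called fibroglycan, varied least. Its 6 swap-averaged log2 ratios lay between -0.25 and 0.16, and its levels between 11.34 and 11.69 in all extracts. SDC3, found on neural cells and on the satellite cells of muscle, gave 0.05 and -0.19 for KD1 relative to CON, then 0.82 and 0.03 for WT relative to CON. In KD1 vs WT it gave -0.83 in replicate 1, while the swapped arrays of replicate 2 read -0.94 and 0.48, a disagreement within 1 dye-swap pair that leaves that replicate's mean of -0.23 without a clear sign. Its levels were 12.33 and 12.35 in WT, 11.48 and 12.10 in CON and 11.52 and 12.09 in KD1.

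SDC4, a syndecan of focal adhesions that works with integrins, was read differently by its probes. The brighter one, A_23_P109034, gave 0.08 and 0.86 for KD1 relative to CON and 0.26 and 1.02 for WT relative to CON, so that CON was lowest (11.64 and 11.24, against 11.91 and 12.40 in WT and 11.71 and 12.15 in KD1). The dimmer one, A_24_P373976, gave -0.32 and 0.21 and then -0.86 and 0.28 in the same comparisons. In neither comparison with CON did the probes have 1 sign in both replicates. In KD1 vs WT both probes were below 0 in both replicates by small amounts. The brighter probe gave -0.21 and -0.27, the latter from swapped arrays that read -0.95 and 0.42, and the dimmer one gave -0.20 and -0.05.

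HSPG2, the gene of perlecan, was highest in WT, narrowly so in replicate 2. Its log2 ratios were 1.21 and 0.38 for WT relative to CON, whereas KD1 gave -0.68 and -0.03 relative to WT and 0.51 and 0.07 relative to CON. Levels were 8.89 and 8.58 in WT, 7.66 and 8.28 in CON and 8.16 and 8.56 in KD1, and the clones overlapped.

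By limma on the 6 swap-averaged ratios, 1 member probe of 11 tested had an adjusted p under 0.05 in KD1 vs CON, that of SULF2, where 1.79% of 21950 probes had one. SULF2 was no longer called with normexp, with median centring, without the filter on the negative controls, or with separate channels. Relative to WT, none of 12 did for KD1, where 1.04% of 24894 probes did, and none of 12 did in the WT vs CON comparison, where 1.37% of 26617 did. At an unadjusted p under 0.05 there were 5 and 6, where 4278 of 24894 and 4402 of 26617 probes had one. A limma fit of the 12 single arrays called 3 and 0, where it called 899 and 871 of all probes tested. That fit did not allow for the extracts shared between comparisons, so it treats the arrays as more independent than they are. A mean at least 2-fold lower with all 4 arrays below 0 was seen relative to CON for SULF2 and GPC3 (2.07% of all probes tested). Relative to WT it was seen for SULF2, GPC3 and GPC4 (2.49%). All 4 KD1 vs WT arrays were below 0 for 6 of 12 member probes (16.0% of all), and all 4 arrays of WT vs CON were above 0 for 6 of 12 (20.1%). The members were selected with these ratios known, and nothing is read from these counts. The median log2 ratio of the member probes tested was -0.06 for KD1 relative to CON, -0.69 for KD1 relative to WT and 0.53 for WT relative to CON. The medians over all probes tested were -0.01, 0.01 and -0.03.

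Ordered by culture, 5 of the 11 member probes tested in all 3 comparisons had both WT extracts above the 4 clone extracts. They were those of SULF1, SDC1, SDC3, GPC4 and HSPG2, where 9.55% of 21894 probes had that order. For HSPG2 the margin was narrow, 8.58 in WT replicate 2 against 8.56 in KD1 replicate 2. Each WT replicate 2 level rests in part on the KD1 vs WT dye-swap pair that correlated least. For SDC3 the direct WT vs CON ratio of replicate 2 was 0.03. Only SULF2 had both KD1 extracts below the other 4 (10.5% of probes), and only the brighter SDC4 probe had both CON extracts below the other 4 (11.1%). The clones were grown with puromycin and carry a vector, and WT was not and does not, so clonal origin, vector and puromycin cannot be told apart in this order. SULF2 and GPC3 were the members whose replicates in WT vs CON were opposite in sign and each at least 0.5 from 0, as for 1.74% of probes tested.

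**Figure D3:**
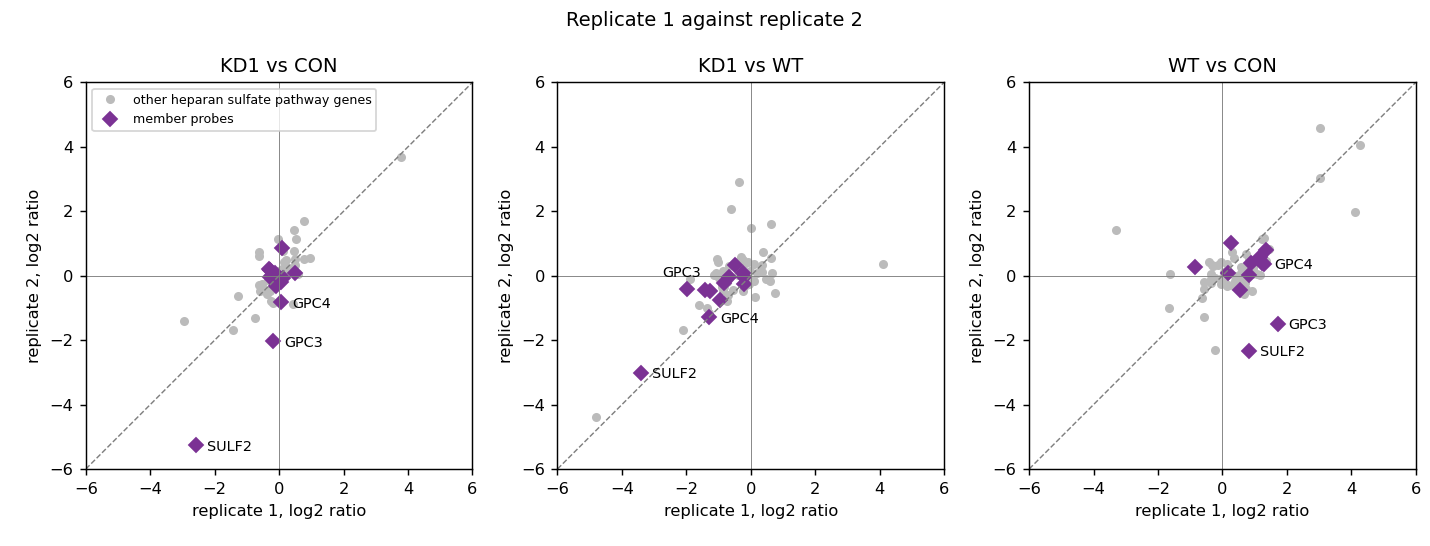
Log2 ratio in replicate 1 (x axis) against replicate 2 (y axis) in each comparison, with diamonds for the 12 member probes, grey points for other heparan sulfate pathway genes and a dashed line of equality. SULF2 lay near the line for KD1 relative to WT (-3.40 and -3.02), off it for KD1 relative to CON (-2.59 and -5.26), and on both sides of 0 when WT was compared with CON.

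The other genes of the pathway were taken by role, 80 genes in 6 lists of which 79 are on the array, each read by its brightest tested probe. In KD1 vs CON, 3 of 53 genes tested passed the limma test at an adjusted p of 0.05, against 1.79% of probes. GPC6, a glypican outside the set, was higher in KD1 than in CON with log2 ratios of 3.80 and 3.69 (mean 3.74 ± 0.08, SD, n = 2, limma adjusted p = 0.0257). Its CON signal was well above background in 6 of 8 readings. A second GPC6 probe, A_23_P371682, gave untested ratios of 1.07 and 1.14. That probe was well above background in 5 of 8 KD1 readings and in no CON reading. MDK, the heparin-binding growth factor midkine, was lower in KD1 than in CON (-2.96 and -1.40, adjusted p = 0.0331). So was NOG, the heparin-binding BMP antagonist noggin (-1.44 and -1.69, adjusted p = 0.0489). Against WT, MDK gave -2.12 and -1.67 without passing (adjusted p = 0.0664), and NOG gave 0.74 and -0.55. For WT relative to CON, MDK gave -0.87 and 0.28, NOG gave -1.65 and -1.01 and GPC6 gave 4.13 and 1.99, none passing. By these ratios CON was highest for NOG and, by the tested probe, lowest for GPC6. The second GPC6 probe gave 0.55 and -0.41 there. None of the 3 genes passed with normexp or with median centring.

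In KD1 vs WT, 2 of 58 genes tested passed, both lower in KD1, against 1.04% of probes. PTN, pleiotrophin and a relative of midkine, gave log2 ratios of -4.81 and -4.38 (limma adjusted p = 0.000178), and its probe was well above background in 8 of 8 WT readings but in only 1 of 8 in KD1, so the size of these ratios rests on a culture mostly not well above background. A second PTN probe, A_23_P303087, was well above background in no KD1 reading and was at least 29.4-fold higher in WT. NOTUM, a secreted hydrolase that acts on Wnt ligands and can release glypicans, gave -1.29 and -1.16 (adjusted p = 0.0423). GPC6 did not pass here, with -0.63 and 2.07. With normexp no pathway gene passed in KD1 vs WT, nor when WT was compared with CON.

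In WT vs CON, 4 of 60 genes tested passed, all higher in WT, against 1.37% of probes. They were PTN (4.28 and 4.05, limma adjusted p = 0.000638), the BMP antagonist GREM1 (3.04 and 4.57, adjusted p = 0.00313), NOTUM (1.24 and 1.13, adjusted p = 0.0431) and SPOCK3, which encodes the proteoglycan testican-3 (adjusted p = 0.00148). The SPOCK3 probe was well above background in no CON reading, and WT was at least 3.60-fold higher. GREM1 was well above background in 2 of 8 CON readings and PTN also in 2 of 8, so the sizes of their ratios rest on a CON signal mostly not well above background. PTN, NOTUM, GREM1 and SPOCK3 were not tested in KD1 vs CON, where their signals did not pass the negative controls on all arrays. The negative control limit was highest on a replicate 1 array of that comparison, a signal of 40.6 in either channel. NOTUM was well above background in 8 of 8 readings of each clone, so its exclusion does not mean an absent signal. The untested values placed CON lowest for GREM1 and SPOCK3. GREM1 gave 2.20 and 2.85 for KD1 relative to CON, and for SPOCK3 the KD1 level exceeded that of CON at least 4.89-fold. NOTUM gave -0.28 and -0.38 for KD1 relative to CON, both nearer to 0 than its values in the comparisons with WT. PTN was well above background in 1 of 8 KD1 readings and 2 of 8 CON readings, so no order between the clones is given. The paper lists PTN and MDK among the genes lower in KD1, by a fold criterion over both KD1 comparisons. That list came from these samples, so their direction here is not independent evidence.

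The enzymes that make and break the chain did not pass the limma test in any comparison. Of the linkage and polymerisation genes, 0 of 11 passed (1 or 2 at an unadjusted p under 0.05), including EXT2 and XYLT2, with mean log2 ratios in KD1 vs CON of 0.51 and 0.03. Of the chain modification and sulfate supply genes, 0 of 10 or 11 tested passed (1 or 2 unadjusted), and HS2ST1 and HS6ST2, which add 2-O- and 6-O-sulfates, gave -0.01 and -0.10 in KD1 vs CON. Of the lysosomal degradation genes, 0 of 7 passed (1 or 2 unadjusted), with GUSB at 0.42 and NAGLU at -0.23 in KD1 vs CON. Over all probes, an unadjusted p under 0.05 was reached by 3776 of 21950 in KD1 vs CON. It was reached by 4278 of 24894 in KD1 vs WT and by 4402 of 26617 in WT vs CON. The fits of single arrays and of separate channels also called none in these 3 lists. SUMF1, which activates sulfatases including SULF2, gave -0.15 for KD1 relative to CON and -0.58 relative to WT, and CASK, a cytoplasmic partner of syndecans, gave 0.32 and -0.35. COL18A1 and CD44, which can carry heparan sulfate, gave -1.03 and 0.21 in KD1 vs CON, and the ligands HBEGF and FGF7 gave 0.65 and -0.53, none of them past the threshold.

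**Figure D4:**
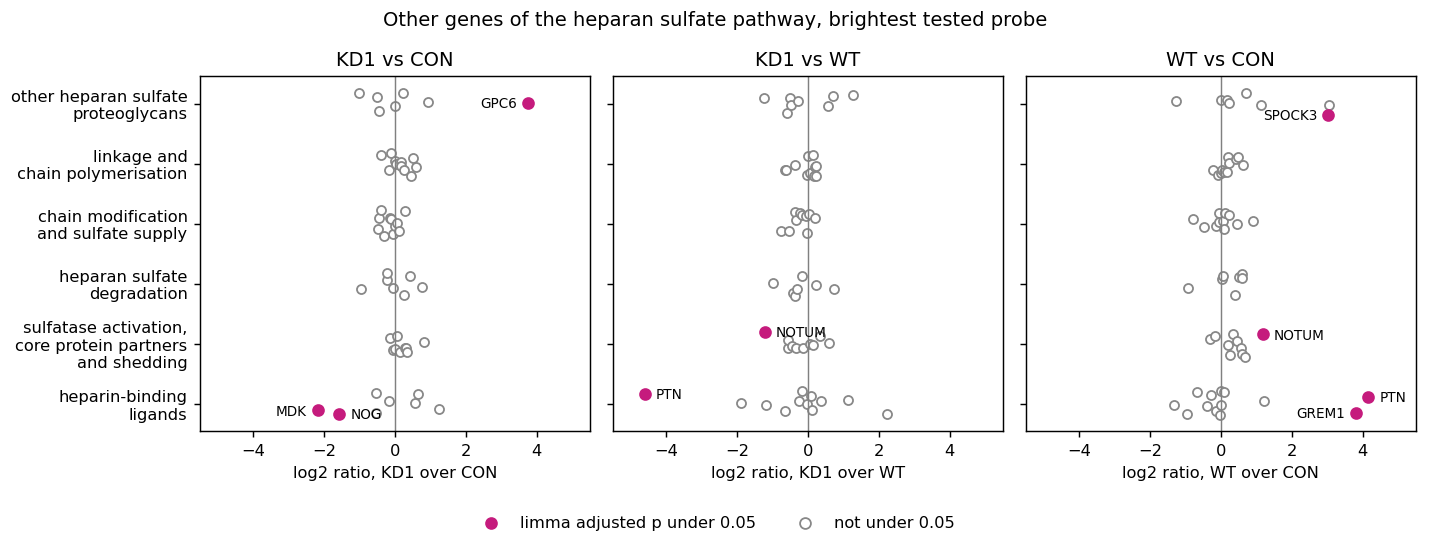
Mean log2 ratio (x axis) of each pathway gene by its brightest tested probe, by list (y axis, points spread vertically for view) and comparison, with filled and named points where the limma adjusted p was under 0.05. Filled points stand in the lists of other proteoglycans, of core protein partners and of ligands, and none stand in the 3 lists of chain enzymes.

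The genes whose pattern was most like that of SULF2 were found by the root-mean-square difference over the 6 swap-averaged log2 ratios, among 11954 named genes. They were LGI2, a secreted leucine-rich repeat protein (difference 0.71), the neurotrophin NTF3 (1.07), the small GTPase RASD1 (1.25), the Notch ligand DLL3 (1.27) and ITPRIPL2 (1.27). The difference depends on the size of the ratios, so genes much lower in KD1 stand nearest to SULF2. All but RASD1 are on the paper's list of genes lower in KD1, which came from these samples. For LGI2, KD1 gave -3.28 and -4.79 relative to CON and -2.63 and -3.04 relative to WT, and WT gave -0.46 and -2.08 relative to CON. For DLL3, KD1 gave -3.99 and -3.30 relative to CON, and WT gave 0.05 and -0.56 relative to CON. Among the members GPC3 was nearest to SULF2, at rank 66 with a difference of 2.10, and GPC4 followed at rank 396.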

How the data were processed

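RNA of WT, CON and KD1 cultures was hybridized to 12 two-color Agilent whole human genome arrays. Using Agilent Feature Extraction 10.5.1.1, the authors deposited intensity values per spot, as raw means, local background and processed signals after background subtraction and lowess, with positions on hg18. A deposited series table of log2 ratios served as an alternative. Processed intensities were turned into log2 ratios, averaged over the spots of a probe without outlier flags (95 to 188 spots per array) and over the arrays of a dye swap. Of the spots, 71.1% to 73.6% were well above background in green and 64.4% to 67.8% in red. Precision is limited by the small number of arrays.

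Ratios were tested with limma 3.58.1 in R 4.3.3 (lmFit, eBayes) on the 6 swap-averaged values with 2 residual degrees of freedom, since the ratios of a replicate close a loop. Probes entered a test if, on each array of that comparison, the background-subtracted signal of either channel was over the 99th percentile of negative control spots. Adjustment was by Benjamini-Hochberg (threshold 0.05). The fit was also run on simulated data with extracts drawn independently. In the data the replicate differences of CON and KD1 correlated with 0.54, which that run does not cover. Levels per extract came from both channels after quantile scaling of mean intensity (Aquantile). Where the dimmer culture was well above background in no reading, its fold is a bound against the lowest signal well above background. Python 3.11.15 with numpy 2.4.6, pandas 2.3.3 and matplotlib 3.10.9 was used.

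The members and the pathway lists were chosen with earlier results of these data known. Named beside the members were the pathway genes that passed in at least 1 comparison, up to 2 others per list by brightness, the 5 genes nearest to SULF2 over the ratios, and the targeted genes and markers. KD1 arrays of replicate 1 were on one slide, those of replicate 2 on another and the WT vs CON arrays on a further one, so the replicate values of a KD1 comparison are also within-slide values. As alternatives, normexp correction (offset 50) with loess, median centring, the series table, a filter on background or none, separate channels, single arrays with a dye effect per slide, any tested probe of a gene, and leaving out each replicate were tried.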

Additional observations from a re-analysis of the deposited data

How the results depend on the processing

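Counts of calls moved most. SULF2 in KD1 vs CON, the only member called, was not called without the filter, with median centring, with normexp and loess, or with separate channels and no replicate block (0 member probes in each). In KD1 vs WT the fit of 12 arrays with a dye effect per slide called 3 member probes, those of SULF2, GPC4 and SULF1, against 0. It took each dye-swap pair as a block but did not allow for the extracts shared between comparisons. Its larger counts of calls therefore rest on an overstated replication. Pathway genes called in KD1 vs CON were 3, and 0 with median centring or normexp, 1 with separate channels and no replicate block, and 5 with the well-above-background filter. In KD1 vs WT they were 2, and 1 with no filter, median centring or separate channels, 0 with normexp, and 4 with 12 arrays. In WT vs CON they were 4, and 2 with median centring, 0 with normexp, and 7 with 12 arrays. Over all probes, 393, 259 and 365 were called in KD1 vs CON, KD1 vs WT and WT vs CON, against 26, 1 and 2 with normexp, 111, 103 and 140 with median centring, 252, 181 and 199 with no filter, 201, 126 and 110 with separate channels and 1013, 899 and 871 with 12 arrays. At an unadjusted p under 0.05, normexp gave 3342, 4355 and 4690 probes. With normexp the SULF2 log2 ratio of KD1 was -1.45 relative to CON and -1.31 relative to WT. Leaving out a replicate left 1 value per comparison and no test, with SULF2 between -5.26 and -2.59, between -3.40 and -3.02, and between -2.32 and 0.84 in the 3 comparisons. The causes were not tested. Each array compares extracts of one replicate number; the differences between replicates correlated across 21894 probes with -0.02 (WT and CON), -0.07 (WT and KD1) and 0.54 (CON and KD1), so the numbers did not pair all extracts. With 2 replicates, no member's replicate difference could be tested.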
